A study of Homo sapiens with 30 samples.

Results

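The comparison described here set ITGB4-negative A375 cells that had crossed narrow pores in 10 rounds against ITGB4-negative A375 cells that had crossed in 5 rounds. Its members were chosen by title: the 3 libraries of Bottom 10 negative cells and the 3 libraries of Bottom 5 negative cells, 6 of the 30 libraries in the series. A375 is an established human melanoma line with a BRAF mutation. Per the labels' protocols, cells were placed on filters with 5 µm pores whose lower face carried fibronectin, the cells that reached the lower side were grown out between rounds, and antibody staining against a gate from unstained cells separated ITGB4-negative from ITGB4-positive cells. The labels name the constricted population as the starting population of the sort, so in both groups the sort is read here as following migration. Replicates are numbered 1 to 3 as biological replicates, and the labels do not say whether the 10-round cells descended from the same 5-round cultures. Each further round also added growth in culture, which cannot be told apart from the crossing itself.

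The other groups used below, of 3 libraries each, were parental negative cells (sorted, not migrated), parental positive cells, Top 10 negative and Top 10 positive cells (10 rounds on the upper side, not crossing), Top 5 positive cells (5 such rounds), Bottom 10 positive cells (10 crossings), and 2 groups sorted before migration: positive cells that then crossed in 5 rounds and negative cells that then crossed in 4. All are A375 cells.

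A cell that passes a pore narrower than its nucleus has to deform the nucleus and remodel its cytoskeleton and adhesions. Repeated passage with regrowth can select cells that cross readily and can also leave lasting changes in those that crossed. Integrin β4, the product of ITGB4, pairs with integrin α6 as a receptor for laminin and anchors epithelial cells to the basement membrane through hemidesmosomes.

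The 6 libraries held 15321855 to 29134945 gene counts and detected 17467 to 18288 genes. Reads that fell in no annotated gene feature made up 12.8 to 13.2% in Bottom 10 negative cells and 14.8 to 17.4% in Bottom 5 negative cells, without overlap. In the other comparisons of 10 with 5 rounds set beside it below, the share was likewise lower after 10 rounds without overlap: 11.4 to 12.6% in Bottom 10 positive against 13.4 to 13.9% in presorted positive crossers, and 12.3 to 13.6% in Top 10 positive against 14.1 to 18.2% in Top 5 positive cells. The part of these differences in the results was not tested. Markers of the melanocyte lineage (8) summed to 807 to 1010 counts per 1000000 (CPM) after 10 crossings and 335 to 1030 after 5. SOX10 made up most of that sum, at 768 to 968 CPM against 287 to 985 CPM, and MITF stood at 32.4 to 66.3 CPM. TYR, TYRP1, PMEL, MLANA and TRPM1 stood at 1.05 CPM or less in each of the 6 libraries, and TYR was above 0 only in Bottom 10 replicate 2. The 15 keratinocyte markers summed to 151 to 180 CPM against 168 to 283, with KRT6A and KRT1 at 0 in all 6 libraries. KRT10 (62.9 to 133 CPM over the 6 libraries) and PERP (60.4 to 114 CPM) made up most of that sum. The 12 immune markers summed to 43.6 to 116 against 61.4 to 115, mostly from CD68 (36.9 to 111 CPM over the 6 libraries), with CD3E and MS4A1 at 0. Fibroblast markers (10) summed to 20.6 to 20.8 against 26.2 to 35.8 and endothelial markers (10) to 23.5 to 28.0 against 20.8 to 25.6. Bulk RNA cannot tell fewer cells of a type from less RNA per cell.

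The libraries of each group were not alike. In a principal component analysis of the 6 libraries, the first component held 51.3% of the variance and ran across the groups: Bottom 5 replicate 1 (-52.5) lay with Bottom 10 replicates 1 (-30.4) and 2 (-42.5), whereas Bottom 10 replicate 3 (12.4) lay toward Bottom 5 replicates 2 (62.3) and 3 (50.7). TXNIP, a thioredoxin-binding protein induced by glucose, shows the split and was chosen after its values were seen. It stood at 333, 763 and 17.6 CPM in Bottom 10 replicates 1 to 3 and at 692, 12.9 and 10.6 CPM in Bottom 5 replicates 1 to 3. CA9, a carbonic anhydrase induced by hypoxia, stood at 126, 100 and 8.79 CPM against 61.2, 2.42 and 1.15 CPM. Bottom 5 replicate 2 was also 1 of 6 libraries that stood apart on the second component over all 30 libraries (score above 30). KRT19, an epithelial keratin chosen after its values were seen, was at 23.3 CPM there. It was at 0.742 and 0.0498 CPM in Bottom 5 replicates 1 and 3 and at 0 after 10 crossings. The mean log2 CPM of the keratinocyte markers tested was 3.38 there, 2.23 and 2.17 in Bottom 5 replicates 1 and 3, and 1.63 to 1.92 after 10 crossings.

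**Figure D1:**
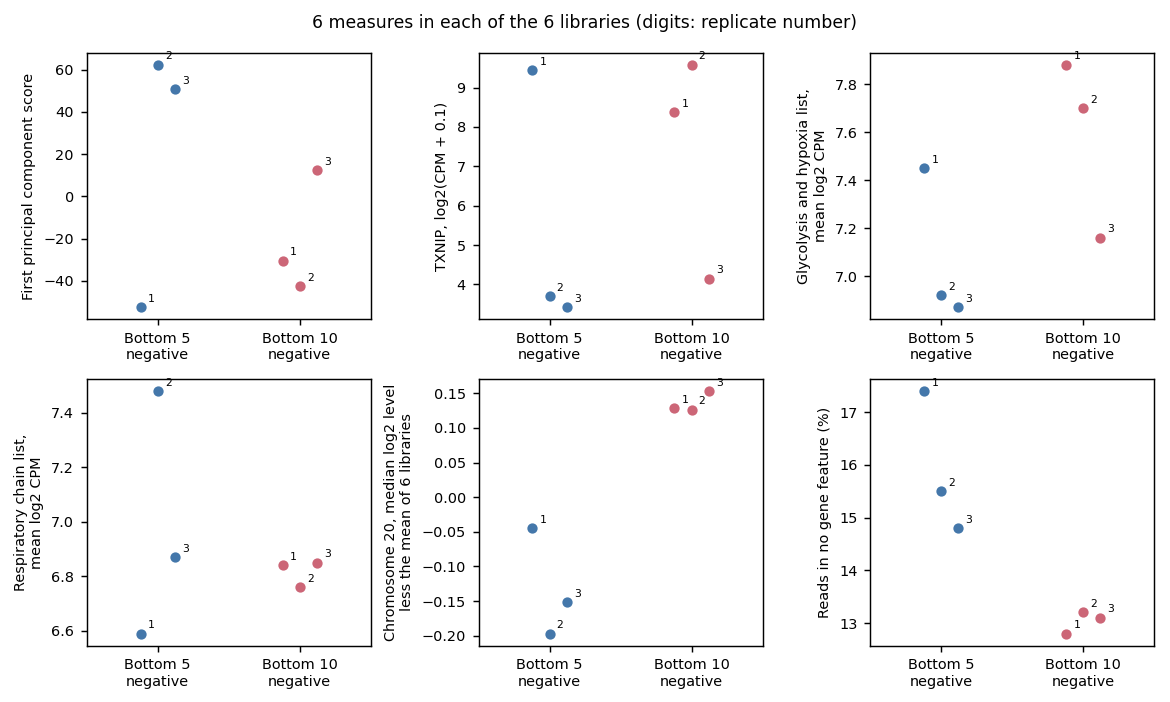
Each panel plots 1 measure (y axis, unit on the axis) for the 3 Bottom 5 negative libraries (blue) and the 3 Bottom 10 negative libraries (red), with digits for the replicate. The first component, TXNIP and both gene lists overlap between the groups, whereas the chromosome 20 median and the share of reads in no feature do not.

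Of 15381 genes tested, 18 were called between 10 and 5 crossings (0.117% of those tested, edgeR quasi-likelihood test, adjusted p under 0.05), 9 higher and 9 lower in Bottom 10 negative cells (0.0585% each way). At an unadjusted p under 0.05 there were 1111 genes, against 769 expected by that threshold alone. The 3 and 3 libraries did not overlap in 990 genes on the higher side (6.44%) and 996 on the lower side (6.48%). The median log2 fold change over all genes was -0.0286, and the median SE of a gene was 0.33. The calls rest on the spread shared by all 10 groups: fitted on these 2 groups alone, edgeR called 0 genes (934 at an unadjusted p under 0.05), and DESeq2 over all groups called 95, among them all 18. Leaving out 1 of the 6 libraries left 2 to 13 calls, and ANKRD30A and RBM11 were called in each of those 6 fits; without the 6 libraries that stood apart 11 genes were called, 8 of them among the 18.

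ITGB4 itself, the sorted protein, stood at 34.7, 87.8 and 24.6 CPM after 10 crossings and at 157, 51.0 and 51.0 CPM after 5. Bottom 5 replicate 1 was the highest of the 6 and the groups overlapped. The log2 fold change was -0.81 ± 0.84 (SE, n = 3 and 3, adjusted p = 0.855), so no difference in the transcript was detectable between 2 groups sorted negative for the protein. Mean ITGB4 was lower in negative than in positive cells of the same history. It was 27.8 against 100 CPM in parental, 7.38 against 28.9 CPM in Top 10 and 49.0 against 130 CPM in Bottom 10 cells. The Top 10 and Bottom 10 libraries overlapped between the sorts, and the level of negative cells differed between histories. ITGB4 stood at 24.6 to 33.7 CPM in parental negative, 35.2 to 168 CPM in parental positive and 17.9 to 45.2 CPM in Top 5 positive cells. All 3 Bottom 5 negative libraries were above the parental negative and Top 5 positive libraries. Top 5 positive cells differ from Bottom 5 negative cells in the side of the filter as well as in the sort.

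Among the genes that rose, PXDN encodes peroxidasin, a secreted peroxidase that cross-links collagen IV in basement membranes. It stood at 49.9, 45.5 and 47.4 CPM after 10 crossings and at 16.8, 6.18 and 7.13 CPM after 5. The Bottom 10 libraries lay close together and all above the Bottom 5 libraries, of which replicate 1 was the highest. The log2 fold change was 2.25 ± 0.37 (adjusted p = 0.0076). The adjusted p was 0.000536 to 0.0796 on leaving out 1 library, and the call was lost without Bottom 10 replicate 1, Bottom 5 replicate 2 or Bottom 5 replicate 3. PXDN stood at 8.45 to 12.3 CPM in parental negative cells, which had not migrated, and at 2.09 to 5.07 CPM in the 6 Top 10 libraries. Presorted crossers held 20.8 to 23.2 CPM (negative, 4 rounds) and 19.9 to 34.7 CPM (positive, 5 rounds), above every Bottom 5 negative library. Bottom 10 positive libraries held 20.1, 16.7 and 9.30 CPM, overlapping Bottom 5 negative cells. The PXDN level thus did not follow the number of crossings across the groups.

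Transcription factors and their partners formed a second set. SOX11, an HMG-box factor of the developing nervous system, stood at 88.2, 78.4 and 75.1 CPM after 10 crossings and at 32.4, 25.4 and 16.3 CPM after 5. The groups were separated by more than the spread within either, with a log2 fold change of 1.71 ± 0.29 (adjusted p = 0.0111). In parental negative cells SOX11 stood at 83.9 to 129 CPM, overlapping the level after 10 crossings. EYA1, a phosphatase and coactivator that works with homeobox factors of the sine oculis family, stood at 16.4, 9.98 and 14.9 CPM against 5.01, 4.79 and 4.64 CPM (log2 fold change 1.51 ± 0.30, adjusted p = 0.0361). The 3 Bottom 5 libraries were nearly equal and all Bottom 10 libraries were above them, yet the parental negative level of 28.5 to 53.8 CPM was above both. RARB, the retinoic acid receptor β, stood at 4.01, 4.54 and 2.82 CPM against 0.989, 0.978 and 0.947 CPM (log2 fold change 1.96 ± 0.38, adjusted p = 0.025), again without overlap. RARB overlaps TOP2B in the RefSeq annotation, and the strand setting of the counting was not given in the sources used here. SOX11 kept its call in 3 of the 6 fits that left out a library (lost without Bottom 10 replicate 1 and without Bottom 5 replicate 2 or 3), and EYA1 and RARB in 1 each.

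MFSD12 and HMG20B rose together and lie side by side on chromosome 19. MFSD12 is a transporter of lysosomes and melanosomes with a known role in pigmentation, and HMG20B is an HMG-box subunit of the LSD1 and CoREST histone demethylase complex. MFSD12 stood at 296, 327 and 291 CPM after 10 crossings and at 184, 79.0 and 86.7 CPM after 5 (log2 fold change 1.39 ± 0.24, adjusted p = 0.013). HMG20B stood at 242, 208 and 205 CPM against 138, 106 and 74.6 CPM (log2 fold change 1.04 ± 0.20, adjusted p = 0.0216). In both genes Bottom 5 replicate 1 was the Bottom 5 library closest to the Bottom 10 level, and no library overlapped. C19orf71, which overlaps MFSD12 in the RefSeq annotation, had a log2 fold change of 1.14 ± 0.54 (adjusted p = 0.685), and FZR1, which also overlaps it, 0.11 ± 0.32 (adjusted p = 0.954). GIPC3, on the far side, was at 0.0498 to 0.396 CPM. MFSD12 kept its call in 2 of the 6 fits that left out a library and HMG20B in 1.

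The promoters of the pair are shown because the 2 genes are transcribed away from each other, from start sites 15358 bases apart, and moved together. The sequences are the 250 bases before the annotated start in RefSeq on GRCh38.p14, 5′ to 3′ in the sense of the gene. They are chr19:3557587-3557836 on the minus strand for MFSD12 and chr19:3572694-3572943 on the plus strand for HMG20B. Capitals mark the CCAAT box motif, letters CCAAT on either strand (ATTGG when it lies on the other).
MFSD12: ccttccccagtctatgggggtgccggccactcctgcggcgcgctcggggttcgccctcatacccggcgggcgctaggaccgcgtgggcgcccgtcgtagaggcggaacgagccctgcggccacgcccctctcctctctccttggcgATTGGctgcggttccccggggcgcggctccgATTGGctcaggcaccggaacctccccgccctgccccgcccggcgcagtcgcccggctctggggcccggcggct
HMG20B: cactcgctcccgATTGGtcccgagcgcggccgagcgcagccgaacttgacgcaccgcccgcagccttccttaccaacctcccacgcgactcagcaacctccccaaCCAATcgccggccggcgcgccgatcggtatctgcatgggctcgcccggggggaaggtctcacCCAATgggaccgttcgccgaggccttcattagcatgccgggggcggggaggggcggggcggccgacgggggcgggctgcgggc
MFSD12 held 2 matches and HMG20B held 3, and 32.0% of the 35116 promoters in the table held at least 1 in the same 250 bases. Both were rich in CpG, with 33 CG dinucleotides each, against a median of 11. These are descriptions of the letters and show no bound factor.

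The remaining genes that rose act at the membrane or as phosphatases. PTPRD, a receptor-type tyrosine phosphatase, stood at 6.84, 6.83 and 4.59 CPM after 10 crossings and at 2.10, 0.824 and 1.20 CPM after 5 (log2 fold change 2.15 ± 0.44, adjusted p = 0.0485). PTPN22, a cytosolic tyrosine phosphatase best known from lymphocytes, stood at 7.29, 6.13 and 4.77 CPM against 2.41, 2.27 and 2.34 CPM (log2 fold change 1.37 ± 0.23, adjusted p = 0.0111). KCNJ8, a pore subunit of ATP-sensitive potassium channels, had 29, 34 and 22 counts after 10 crossings and 0, 1 and 2 counts after 5. The KCNJ8 ratio of depth-scaled counts was 22.2 (exact 95% interval 7.35 to 110, counting error only), with an adjusted p of 0.0195. All 3 were separated from the Bottom 5 libraries, and all 3 stood in every Bottom 10 negative and Bottom 10 positive library above every one of the 24 other libraries, as 7 of all genes tested did (0.0455%). The 6 libraries that chose the genes are part of that count. That highest level elsewhere was 2.31 CPM for PTPRD, 3.88 CPM for PTPN22 and 0.228 CPM for KCNJ8. PTPRD-AS1 overlaps PTPRD and AP4B1-AS1 overlaps PTPN22, so without a known strand setting their reads cannot be told apart. PTPRD and KCNJ8 kept their calls in 1 of the 6 fits without a library and PTPN22 in 2.

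**Figure D2:**
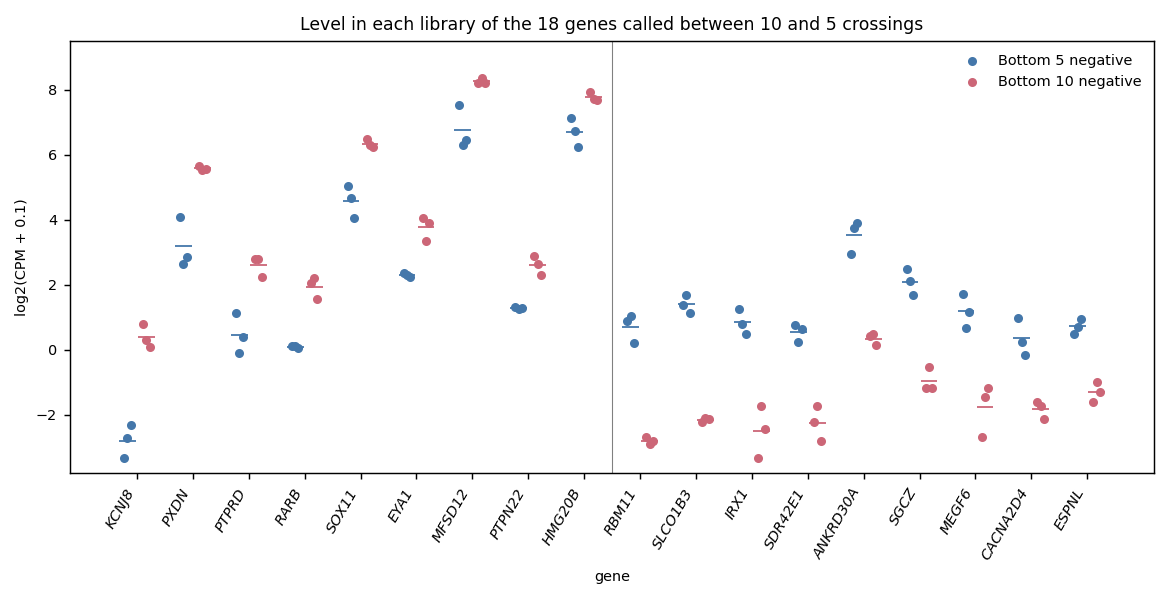
Each point is 1 library, as log2(CPM + 0.1) on the y axis, for the 9 genes called higher (left of the grey line) and the 9 called lower (right); short lines are group means. In each of the 18 genes the 3 Bottom 10 negative libraries (red) and the 3 Bottom 5 negative libraries (blue) do not overlap, as the call itself makes likely.

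The genes that fell were mostly of low level. ANKRD30A, a differentiation antigen of breast epithelium also known as NY-BR-1, had the smallest p. It stood at 1.24, 1.29 and 0.996 CPM after 10 crossings and at 7.67, 13.3 and 14.9 CPM after 5. The log2 fold change was -3.33 ± 0.37 (adjusted p = 4.75e-05), and leaving out any 1 library gave -3.57 to -3.14 with an adjusted p of at most 0.00244. LINC00993, the next tested gene on chromosome 10, was at 0.113, 0.166 and 0 CPM against 0.989, 3.76 and 1.15 CPM (adjusted p = 0.0519). FZD8, the nearest tested gene on the other side, had a log2 fold change of 0.29 ± 0.39 (adjusted p = 0.887), and the genes beyond these had -0.02 ± 0.12 (CCNY) and 0.06 ± 0.19 (ZNF248). Any reads common to ANKRD30A and related sequences in the genome would have aligned to more than 1 place. Such reads were kept out of the gene counts, and how many of them ANKRD30A lost is not known.

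The other 8 genes that fell stood below 6 CPM in each of the 6 libraries; they and KCNJ8 and RARB lie outside the rule for naming genes and were chosen after their values were seen. RBM11, a tissue-restricted splicing regulator, had 1 count in each Bottom 10 library and 28, 38 and 21 counts in the Bottom 5 libraries. Its depth-scaled ratio was 37.0 in favour of Bottom 5 (exact 95% interval 12.2 to 183, counting error only; adjusted p = 0.000171). SLCO1B3, a hepatic uptake transporter of organic anions, stood at 0.113, 0.133 and 0.130 CPM against 2.47, 3.14 and 2.09 CPM (log2 fold change -4.28 ± 0.63, adjusted p = 0.0041), and its neighbour and relative SLCO1B1 had 0.75 ± 0.75 (adjusted p = 0.851). IRX1, an Iroquois homeobox factor, stood at 0, 0.199 and 0.0866 CPM against 2.29, 1.65 and 1.30 CPM (log2 fold change -3.96 ± 0.64, adjusted p = 0.0076). SGCZ, a sarcoglycan of the dystrophin complex, stood at 0.339, 0.597 and 0.347 CPM against 5.50, 4.22 and 3.14 CPM (log2 fold change -3.28 ± 0.59, adjusted p = 0.0168). None of these 4 overlapped. RBM11 kept its call in all 6 fits that left out a library, SLCO1B3 in 5 (not without Bottom 10 replicate 1), IRX1 in 4 (not without Bottom 10 replicate 1 or 3) and SGCZ in 1.

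The last 4 genes that fell were SDR42E1, MEGF6, CACNA2D4 and ESPNL. SDR42E1, a short-chain dehydrogenase of steroid type, had 2, 6 and 1 counts after 10 crossings and 26, 21 and 29 after 5 (log2 fold change -3.42 ± 0.64, adjusted p = 0.0216). MEGF6, a protein with EGF-like repeats, had 1, 8 and 8 counts against 51, 29 and 43 (-3.26 ± 0.62, adjusted p = 0.0216). CACNA2D4, an accessory subunit of voltage-gated calcium channels, had 4, 6 and 3 counts against 30, 21 and 16 (-2.71 ± 0.49, adjusted p = 0.0168). ESPNL, a relative of the actin bundler espin, had 4, 12 and 7 counts against 21, 30 and 37 (-2.29 ± 0.43, adjusted p = 0.0216). All 4 kept their direction on leaving out any 1 library, but SDR42E1 and MEGF6 lost the call in all 6 such fits and CACNA2D4 and ESPNL in 5 of 6.

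The promoters of RBM11 and SLCO1B3 are shown as those of 2 genes that fell together and differ in composition. Both come from RefSeq on GRCh38.p14 and the plus strand: chr21:14215907-14216156 for RBM11 and chr12:20810455-20810704 for SLCO1B3. Capitals again mark CCAAT on either strand.
RBM11: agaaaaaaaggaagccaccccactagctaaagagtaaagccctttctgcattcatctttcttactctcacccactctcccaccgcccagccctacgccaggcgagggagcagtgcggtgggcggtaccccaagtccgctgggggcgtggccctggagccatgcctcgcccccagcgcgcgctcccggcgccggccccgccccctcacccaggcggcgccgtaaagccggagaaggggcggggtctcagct
SLCO1B3: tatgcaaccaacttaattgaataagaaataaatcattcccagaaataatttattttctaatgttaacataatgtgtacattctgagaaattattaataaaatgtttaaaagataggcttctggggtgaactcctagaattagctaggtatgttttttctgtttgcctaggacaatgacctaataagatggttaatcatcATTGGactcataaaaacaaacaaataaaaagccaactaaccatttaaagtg
The RBM11 window held 20 CG dinucleotides and 67.2% G and C, and the SLCO1B3 window held 0 and 28.4%. Of the 18 genes, 12 had an entry in the promoter table; ANKRD30A, SOX11, CACNA2D4, SGCZ, SDR42E1 and EYA1 had none.

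A further pair of comparisons of 10 with 5 rounds shares no library with this one, and the 2 share none with each other. In positive cells, Bottom 10 against cells sorted positive and then taken through 5 crossings gave 32 called genes (0.208%). In positive cells that did not cross, Top 10 against Top 5 gave 7 called genes (0.0455%). Of the 18 genes, 17 had the same sign in positive crossers, with PXDN the exception, and 11 were called there too, which is 61.1% of the 18 and 34.4% of the 32. These 11 were ANKRD30A, RBM11, SLCO1B3, SGCZ, SDR42E1, CACNA2D4, MFSD12, HMG20B, PTPN22, PTPRD and KCNJ8. Of the others with the same sign, MEGF6 was at -0.10 ± 0.54, EYA1 at 0.33 ± 0.30 and RARB at 0.42 ± 0.39 in positive crossers. The share of all genes with the same sign was not counted for these comparisons. The number called in both fell to 2 to 7 when 1 library of the 4 groups was left out. In the non-crossers 13 of the 18 had the same sign and 0 were called (edgeR; DESeq2 called 157 genes in that comparison over all genes and 3343 had an unadjusted p under 0.05 in edgeR).

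The log2 fold change of ANKRD30A was -3.33 ± 0.37 in negative crossers, -3.32 ± 0.37 in positive crossers and -1.83 ± 0.37 in non-crossers (adjusted p = 0.0711 there). PXDN differed in sign, with 2.25 ± 0.37 in negative crossers, -0.74 ± 0.35 in positive crossers and -0.43 ± 0.37 in non-crossers. KCNJ8 was at 4.39 ± 0.81, 3.28 ± 0.69 and -0.50 ± 0.99, and PTPRD at 2.15 ± 0.44, 3.03 ± 0.45 and -0.36 ± 0.46, in that order. Tested directly, the change in negative crossers differed from that in positive crossers in 0 genes (0%, 543 at an unadjusted p under 0.05). It differed from that in non-crossers in 0 genes (0%, 324 at that threshold). Both numbers were below the 769 expected by that threshold alone, so 0 calls do not show that the changes were alike. DESeq2 called 2 and 8 genes in these tests. For PXDN the difference from positive crossers was 2.98 ± 0.51 with an adjusted p of 0.0679, and that from non-crossers 2.68 ± 0.51 with an adjusted p of 0.0981. The difference from non-crossers was 2.22 ± 0.40 for SOX11 (adjusted p = 0.0907) and -4.91 ± 0.94 for SGCZ (adjusted p = 0.0981). SGCZ was at 1.63 ± 0.75 in non-crossers, the opposite sign. For MEGF6 the difference from positive crossers was -3.16 ± 0.81 (adjusted p = 0.978). The sort, its place before or after migration and, for Top cells, the side of the filter differ together and cannot be told apart.

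**Figure D3:**
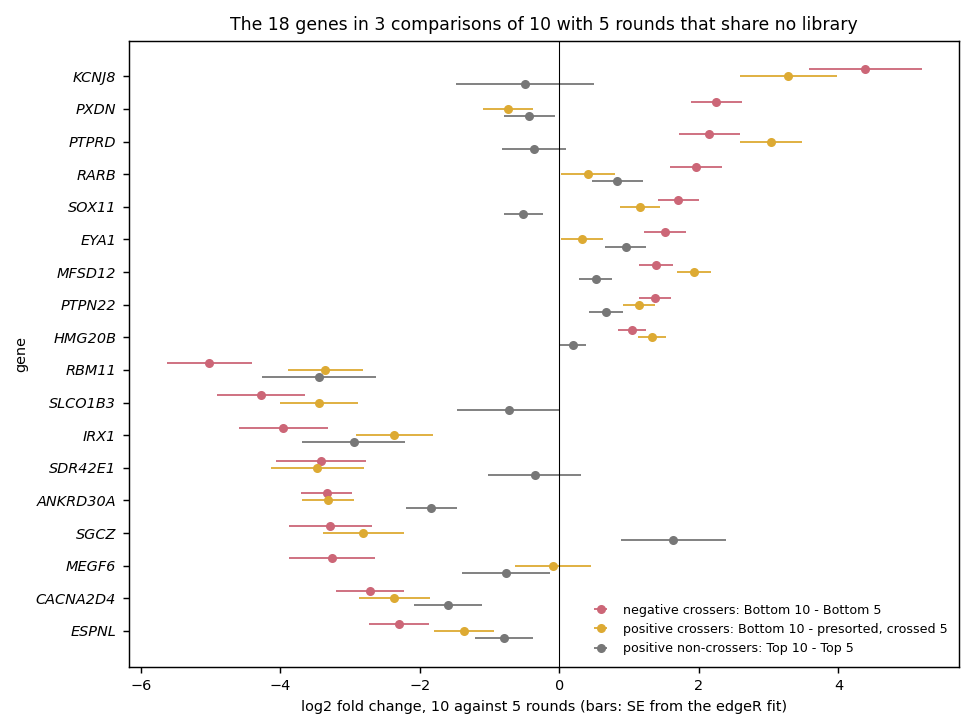
Points are log2 fold changes of 10 against 5 rounds (x axis, bars are SE) for the 18 genes (y axis) in negative crossers (red), positive crossers (yellow) and positive non-crossers (grey). Red and yellow lie on the same side of 0 in 17 genes, with PXDN the exception, though yellow is at only -0.10 ± 0.54 for MEGF6. Red chose the genes and is a description.

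Over the wider series, 12 libraries of 10 rounds, on either side of the filter, were set against 9 libraries of crossers of 4 or 5 rounds. Of the 18 genes, 8 separated all 12 from all 9. Of these 8, 6 were lower after 10 rounds, as were 24 of all genes tested (0.156%). The other 2 were higher, as were 27 of all genes tested (0.176%). The 6 libraries that chose the genes are among these libraries. Outside the 2 groups compared lie 15 of the libraries, 9 of 10 rounds and 6 of presorted crossers. They entered the fit only through its shared spread and normalization. ANKRD30A, RBM11, SLCO1B3, IRX1, SGCZ and SDR42E1 were lower in each of the 9 than in each of the 6, as were 89 of all genes tested (0.579%). MFSD12 and HMG20B were higher there, as were 132 of all genes tested (0.858%). TXNIP followed the replicate number across the 10-round groups, so the 9 libraries may not be independent of those compared. Top cells, which had not crossed, were on the same side as Bottom cells: ANKRD30A stood at 0.301 to 1.18 CPM in the 6 Top 10 libraries, at 0.996 to 1.51 CPM in the 6 Bottom 10 libraries and at 7.67 to 14.9 CPM in the 9 early crosser libraries. Parental cells divided by the sort. Parental positive libraries held 8.54 to 11.4 CPM of ANKRD30A and parental negative libraries 1.29 to 3.49 CPM, and Top 5 positive libraries held 2.34 to 3.29 CPM. MFSD12 stood at 288 to 486 CPM in the 12 libraries of 10 rounds, at 71.3 to 184 CPM in the 9 early crosser libraries, at 242 to 349 CPM in parental negative and at 107 to 151 CPM in parental positive cells.

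**Figure D4:**
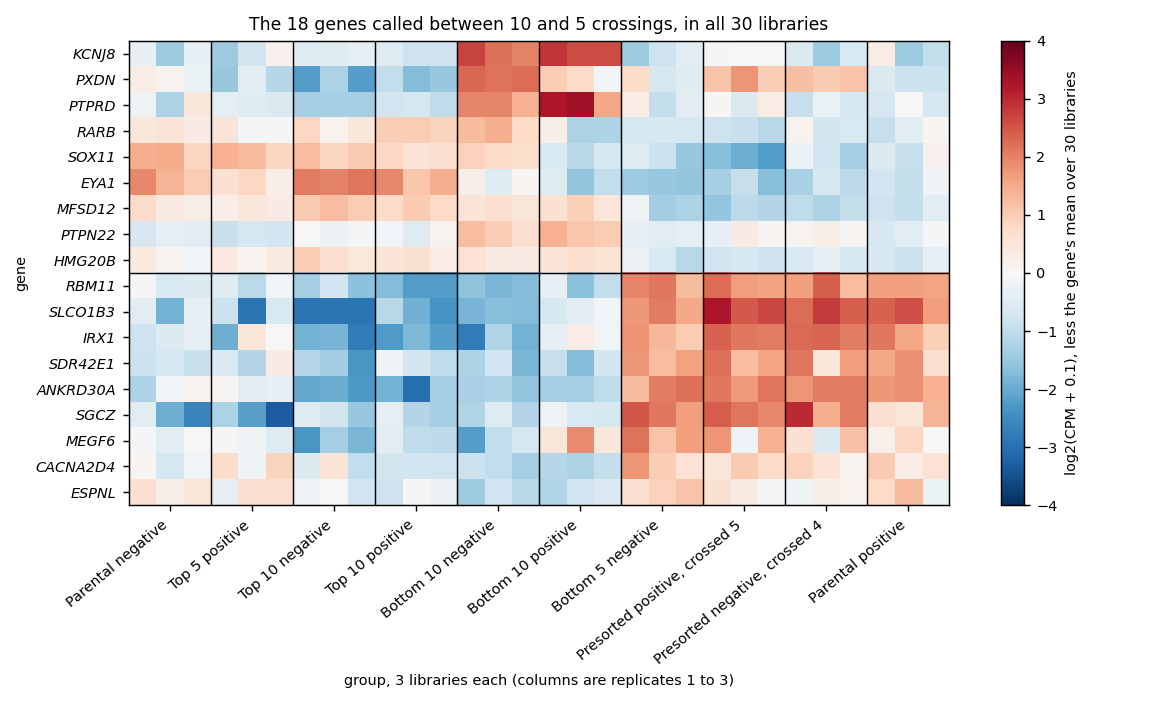
The heat map plots log2(CPM + 0.1) of each of the 18 genes (rows), less the gene's mean over 30 libraries, in every library (columns, 3 per group; red higher, blue lower). RBM11, SLCO1B3, IRX1, SDR42E1, ANKRD30A and SGCZ are red in the 9 libraries of crossers of 4 or 5 rounds and in parental positive cells. They are blue in all 12 libraries of 10 rounds, except IRX1 in Bottom 10 positive replicate 2 (0.758 CPM), which lies above the gene's mean.

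Set against parental negative cells, which both groups share as the reference, 132 genes were called after 5 crossings (0.858%) and 50 after 10 (0.325%). The 18 genes fell into different positions. The 6 libraries that chose these genes also supply the values set against parental cells, so the positions are a description. PXDN, PTPN22, KCNJ8 and PTPRD were not called after 5 crossings (log2 fold changes -0.09, 0.12, -0.45 and -0.10, adjusted p 0.911 to 0.968) and were above parental cells after 10 (2.16, 1.49, 3.93 and 2.05, adjusted p 0.00482 to 0.0343). ANKRD30A, RBM11, SLCO1B3, SGCZ and SDR42E1 were above parental cells after 5 crossings (2.21, 2.56, 2.83, 3.89 and 2.85, adjusted p 0.00209 to 0.0287), and after 10 their values were -1.13, -2.45, -1.46, 0.61 and -0.57, none of them called. SOX11 and MFSD12 were below parental cells after 5 crossings (-2.20 and -1.29, adjusted p 0.000377 and 0.00805) and at -0.50 and 0.09 after 10, neither called. EYA1 was below in both, at -3.03 after 5 crossings (adjusted p = 1.62e-05) and -1.52 after 10 (adjusted p = 0.0188).

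Genes of at least 5 CPM in 1 group, with a log2 fold change of at least 1 in size and no overlap, that missed the threshold are given as values. On the higher side, NDN, a growth suppressor of the MAGE family, stood at 19.1, 14.2 and 21.9 CPM against 4.21, 8.45 and 6.98 CPM (log2 fold change 1.49 ± 0.31, adjusted p = 0.0519). GALNT6, an enzyme that starts O-glycans, stood at 17.7, 18.0 and 14.6 CPM against 7.48, 8.03 and 6.58 CPM (1.19 ± 0.26, adjusted p = 0.0568). ZNF521, SORCS1 (a sorting receptor) and XYLT1 (which starts proteoglycan chains) had values of 2.82 ± 0.65, 2.81 ± 0.66 and 2.33 ± 0.55, with adjusted p of 0.0873, 0.0975 and 0.0975. DESeq2 called all 5 of these. On the lower side, SCML1, a Polycomb-group relative, stood at 7.69, 9.95 and 11.2 CPM against 18.3, 24.9 and 19.5 CPM (-1.12 ± 0.24, adjusted p = 0.0519). ADAM8, a membrane protease, and COL7A1, the collagen of anchoring fibrils, had -1.33 ± 0.31 and -1.32 ± 0.31 (adjusted p = 0.09 and 0.0975). NEAT1, the RNA scaffold of paraspeckles, stood at 314, 387 and 225 CPM against 1410, 832 and 488 CPM (-1.56 ± 0.39, adjusted p = 0.129), and KRT8, a simple-epithelial keratin, at 20.9, 32.4 and 23.7 CPM against 51.4, 127 and 74.3 CPM (-1.71 ± 0.49, adjusted p = 0.273). The remaining 6 by this rule, UPK3B, CCNA1, MIRLET7BHG, TMSB4X, SCG5 and APOL1, had log2 fold changes of -2.61 to -1.26 with adjusted p of 0.116 to 0.293.

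Lists of adhesion, state, signalling, stress, metabolic and marker genes gave 2 called members among 811 distinct genes tested (0.247%, against 0.117% of all genes): PXDN among basement membrane genes and SOX11 among SOX factors. The other 36 of 38 lists had 0 called by edgeR, and DESeq2 called 7 list members in all. A list is described by its median log2 fold change, which was -0.0286 over all genes, and by how many members were higher, as 46.9% of all genes were.

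Integrin subunits other than the sorted pair were higher in 12 of 15 (median 0.47), with 0 called. Their mean log2 CPM was 5.86, 6.03 and 5.45 after 10 crossings and 6.10, 4.70 and 5.02 after 5, so the groups overlapped and Bottom 5 replicate 1 was the highest of the 6. The basement membrane list ran the same way, at 5.23 to 5.70 against 5.98, 4.47 and 4.94, and the part of that library split in the list counts was not tested. ITGAV, a partner of several β subunits in fibronectin and vitronectin receptors, stood at 127, 111 and 113 CPM against 87.9, 75.3 and 83.0 CPM, without overlap, at 0.51 ± 0.19 (adjusted p = 0.538). The hemidesmosome and laminin-332 list, ITGB4 included, was higher in 3 of 10 (median -0.32). Basement membrane genes other than PXDN showed no call, 13 of 19 members being higher (median 0.13), and interstitial matrix genes were higher in 19 of 28 (median 0.16), of which FBN2, a microfibril protein, had the smallest p (2.30 ± 0.58, adjusted p = 0.133). Lamins and LINC complex genes, which couple the nucleus to the cytoskeleton, were higher in 8 of 16 (median 0.02), with SYNE2 at 1.05 ± 0.40 (adjusted p = 0.538). Actomyosin and focal adhesion genes were higher in 16 of 32 (median -0.04), and TAGLN, an actin-binding protein of smooth muscle, was at -1.41 ± 0.36 (adjusted p = 0.147).

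Among signalling lists, BMP4, a secreted ligand of the TGF-beta family, came closest to the threshold. It stood at 1.81, 1.82 and 1.82 CPM after 10 crossings and at 3.83, 5.66 and 4.39 CPM after 5 (-1.35 ± 0.29, adjusted p = 0.0554), and 14 of 27 genes of its list were higher (median 0.06). ANKRD1, a target of YAP and TEAD, stood at 1.30, 8.98 and 4.33 CPM against 28.8, 34.7 and 42.3 CPM without overlap (-2.84 ± 0.85, adjusted p = 0.294), and 8 of the 24 YAP and TEAD targets were higher (median -0.12). CDH2, the cadherin of neural and mesenchymal cells, stood at 134, 129 and 109 CPM against 83.8, 78.4 and 92.9 CPM (0.54 ± 0.15, adjusted p = 0.241). MITF, the master factor of pigment cells, overlapped at 36.9, 34.1 and 33.5 CPM against 32.4, 47.7 and 66.3 CPM, and 10 of 14 melanocyte genes were higher (median 0.14). Genes of MAPK output were higher in 15 of 20 (median 0.24), and p53 targets in 9 of 25 (median -0.25), of which PHLDA3 was at -0.80 ± 0.23 (adjusted p = 0.261).

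Metabolic and cell cycle lists had 0 called. Glycolysis and hypoxia genes were higher in 25 of 30 (median 0.44), but the libraries overlapped: the mean log2 CPM of the list was 7.88, 7.70 and 7.16 in Bottom 10 replicates 1 to 3 and 7.45, 6.92 and 6.87 in Bottom 5 replicates 1 to 3. Bottom 10 replicate 3, low in TXNIP and CA9, was the lowest of its group and Bottom 5 replicate 1, high in both, the highest of its. Respiratory chain genes encoded in the nucleus were higher in 7 of 35 (median -0.25), at 6.84, 6.76 and 6.85 against 6.59, 7.48 and 6.87, so that Bottom 5 replicate 2, which stood apart, was the highest and replicate 1 the lowest. Genes of G2 and mitosis were higher in 31 of 40 (median 0.14), at 6.96, 6.82 and 7.08 against 6.27, 6.93 and 7.06, with Bottom 5 replicate 1 lowest. The part of these libraries in the list values was not tested.

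**Figure D5:**
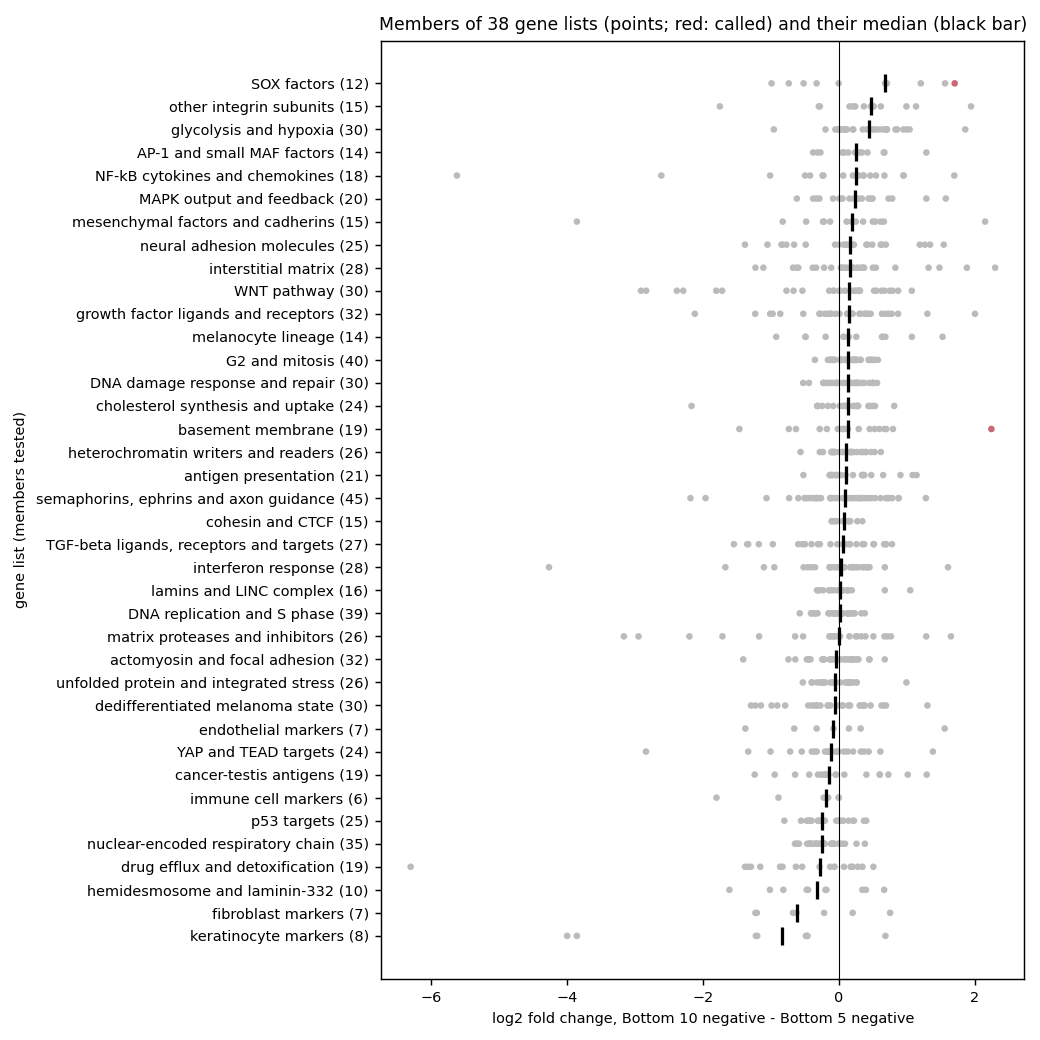
Each row is 1 of 38 lists with the number of members tested, each point a member's log2 fold change (x axis; red points were called) and each black bar the median. The medians run from -0.84 for keratinocyte markers to 0.68 for SOX factors, and PXDN and SOX11 are the 2 red points.

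By chromosome, genes on chromosome 20 stood apart in value: 291 of 408 (71.3%) were higher after 10 crossings, with a median log2 fold change of 0.221, whereas the share over all genes was 46.9%. The chromosome's median level, taken relative to the mean of the 6 libraries, was 0.126 to 0.153 in the Bottom 10 libraries and -0.197 to -0.045 in the Bottom 5 libraries, without overlap. Of the 408 genes 0 were called, the other chromosomes had medians of -0.099 to 0.046, and DNA copy number was not measured here.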

How the data were processed

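The authors deposited unnormalized counts for each gene symbol in separate files for the libraries. The submitters' processing notes name STAR, HTSeq, DESeq and the build hg19; versions, annotation and strand setting are not given in the sources used here. Of 26364 genes listed, 15381 passed edgeR's filter (minimum count 10, minimum total 15). Reads in no gene (22.5 to 28.2% in the 6 libraries) stayed out. All 30 libraries were fitted in 1 edgeR 4.0.16 quasi-likelihood model (TMM factors, 10 groups, 20 residual degrees of freedom, R 4.3.3) and p-values were adjusted by Benjamini-Hochberg over all tested genes, at 0.05. An SE is the size of a log2 fold change divided by the square root of F. On simulated counts for Bottom 10 against Bottom 5 over 15257 genes, 30.0% of 2-fold and 83.0% of 4-fold changes were called, with 5 false calls. The changed genes had a mean of at least 1 CPM, so these shares do not cover lower genes. Each gene was simulated separately from the fitted dispersions, without the split between libraries described above, so false calls from that split were not simulated. P-values measure the spread between libraries labelled as biological replicates. Within each of the 2 groups compared, no 2 libraries were copies (chi-square per degree of freedom at least 22.9). RefSeq matched 98.1% of tested genes and, being on another build, served for names, chromosomes, neighbours and promoters only. Named genes were ITGB4, up to 12 called genes each way with at least 5 CPM in 1 group and no overlap, filled with genes of smallest p and a log2 change of at least 1, and of each list up to 4 called members or the member of smallest p. The members, lists and comparisons were chosen with earlier results of these data known. Alternatives were RLE factors, no filter, DESeq2 1.42.0, only the compared groups, a replicate block, leaving out each library, and, chosen after seeing the data, leaving out the 6 libraries that stood apart.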

Additional observations from a re-analysis of the deposited data

How the results depend on the processing

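The 18 genes kept their direction under all 19 alternatives run. RLE factors (20 calls) and no filter (19) kept all 18 genes; without the filter 1 gene differed from positive crossers. DESeq2 called 95 genes (44 higher, 51 lower), 7 list members, 28 genes in both comparisons of crossers, and 8 and 2 genes differing from non-crossers and from positive crossers. Without the 6 libraries that stood apart, 11 were called (3 higher), 8 of them among the 18, with 1 list member and 6 genes in both comparisons of crossers. Fitted on the compared groups alone, edgeR called 0 genes (0 higher, 0 lower), 0 list members and 0 genes in both comparisons. Leaving out 1 library of the 4 groups of crossers gave 2 to 28 calls (0 to 11 higher, 2 to 17 lower), 0 to 2 list members, 2 to 7 genes in both comparisons, 0 to 2 genes differing from non-crossers and 0 to 1 from positive crossers; the cause was not tested. ITGB4 ran from -1.54 to -0.05 on leaving out 1 library and was never called.

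Between the 2 groups compared the replicate numbers did not pair the libraries: deviations of same-numbered libraries correlated at 0.203, -0.285 and 0.551. Among 10-round groups TXNIP followed the number, at 302 to 496, 687 to 847 and 13.9 to 20.9 CPM in replicates 1 to 3. In Bottom 5 negative, Top 5 positive and parental negative cells it stood at 505 to 692, 6.79 to 12.9 and 8.2 to 10.6 CPM. Parental positive cells (13.6, 8.95 and 74.8 CPM) and the presorted groups differed. Whether same-numbered libraries of different groups are independent was not tested. With the replicate block over all groups, 38 genes were called (18 higher, 20 lower; all 18 among them), 3 list members, 4 genes differed from non-crossers and 1 from positive crossers. With the replicate block on the 2 compared groups alone, 0 were called. Depth limits the low genes: 9 of the 18 had at most 40 counts over 1 group.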
